A study of Arabidopsis thaliana with 11 samples.

Results

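The genes described here are the 8 Arabidopsis loci that encode the DELLA growth repressors and the gibberellin receptors. The 5 DELLA genes are RGA (AT2G01570), GAI (AT1G14920), RGL1 (AT1G66350), RGL2 (AT3G03450) and RGL3 (AT5G17490), and the 3 receptor genes are GID1A (AT3G05120), GID1B (AT3G63010) and GID1C (AT5G27320). They were taken by locus identifier from the 25263 genes to which at least 1 library assigned a HY5 peak, and all 8 were among them.

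DELLA proteins are nuclear regulators of the GRAS family that hold back growth, among other ways by keeping growth-promoting transcription factors off DNA. When gibberellin binds a GID1 receptor, the receptor takes hold of a DELLA protein, which is then marked by an F-box ubiquitin ligase and degraded. In young seedlings gibberellin favours the elongated growth seen in darkness, and HY5, a basic leucine zipper protein, promotes the short, green growth seen in light.

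Binding was measured by chromatin immunoprecipitation with a Flag antibody, followed by sequencing, in whole seedlings of the Columbia ecotype. Plants carried HY5 fused to the FLASH tag, which includes Flag, under the viral 35S promoter, which is active in most tissues, so the profiles are those of a protein made in excess and beyond its own pattern of expression. HY5ox carried the tagged protein without further modification (3 libraries), HY5-VP16 added the VP16 activation domain (3 libraries) and HY5-SRDX added the SRDX repression domain (2 libraries). Seedlings of every group were kept in darkness for 3 days at 21 °C and then received 2.5 h of simulated white light at 100 µmol per square metre per second. Each of 3 sets had its own control sample, Col-0 in sets 1 and 3 and a sample named hy5 in set 2. The labels fill in the tag field for the controls as well, so they do not settle whether a control carried a tagged protein, and each fold over control is read with that limit. Both HY5-SRDX libraries, the first HY5ox library and the first 2 of HY5-VP16 made up set 1. HY5ox replicate 2, in set 2, was collected and handled apart from the rest per the labels, and set 3 held HY5ox replicate 3 and HY5-VP16 replicate 3. Whether the host plants of the constructs still had their own HY5, and whether libraries came from separate lines or cultures, is not given in the labels, so the spread behind each p-value below is that among these libraries and could be technical.

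The libraries held 11.5 to 56.0 M tags and 2958 to 20509 peaks. HY5-VP16 replicate 3 stood apart, with the most tags and the fewest peaks, and peaks took up 1.83% of its tags, where in other libraries they took up 5.94% to 10.1%. HY5-SRDX replicate 1 stood apart in the other direction, with the most peaks and the narrowest (167 bp). Its promoter peaks fell farther from genes' start sites than in the other libraries. Of its promoter assignments to protein-coding genes, 48.1% lay more than 1000 bp upstream, against 26.2% to 33.3% elsewhere. A peak had to reach 26.04 to 44.3 tags per 10 M, depending on the library, so weaker binding was not detectable. Peaks were 273, 283 and 301 bp wide in HY5ox replicates 1 to 3 and 253, 191 and 257 bp in HY5-VP16. In HY5-SRDX they were 167 and 209 bp wide. Tags were counted over each library's own width, and the part of width in differences in tag level between constructs was not tested. The promoter of HY5 itself served as a reference for the tagged factor. It carried a peak in all 8 libraries, at a median of -58 bp from the start site, with 78.8 to 399.8 tags per 10 M.

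RGA, RGL3 and GID1B carried a peak in all 8 libraries. GAI was listed in 7 libraries, RGL1 and GID1A in 6 each, RGL2 in 4 and GID1C in 2. Of the 64 combinations of gene and library, 49 were listed. Single libraries listed 12.4% to 52.5% of all 27432 protein-coding genes, and the median such gene was listed in 2 libraries. A gene is called listed where the authors placed a peak in its promoter, which reaches 2000 bp upstream of the start site, or in its body.

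The HY5ox libraries listed most of the genes. HY5ox replicate 1 listed 7 of the 8, in a library that listed 46.4% of all 27432 protein-coding genes. HY5ox replicate 2 also listed 7, against 28.9% of protein-coding genes, and replicate 3 listed all 8, against 41.0%. In HY5-VP16 the counts were 6 in replicate 1, 6 in replicate 2 and 4 in replicate 3, beside 34.9%, 44.6% and 12.4% of protein-coding genes. In HY5-SRDX they were 4 in replicate 1 and 7 in replicate 2, beside 52.5% and 40.4%. HY5-SRDX replicate 1, which had the largest gene list, listed as few of these genes as HY5-VP16 replicate 3, which had the smallest.

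The mean count was 7.33 ± 0.577 (SD, n = 3) in HY5ox, 5.33 ± 1.15 (n = 3) in HY5-VP16 and 5.5 ± 2.12 (n = 2) in HY5-SRDX. Beside these counts, the mean share of protein-coding genes listed was 38.8% in HY5ox, 30.6% in HY5-VP16 and 46.4% in HY5-SRDX. Within set 1, HY5ox had 7, both HY5-VP16 libraries 6, and HY5-SRDX 4 and 7. Within set 3, HY5ox had 8 and HY5-VP16 had 4, but the HY5-VP16 library there is the one with the fewest peaks. Without that library the HY5-VP16 mean was 6, and without HY5-SRDX replicate 1 the remaining HY5-SRDX library had 7.

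**Figure D1:**
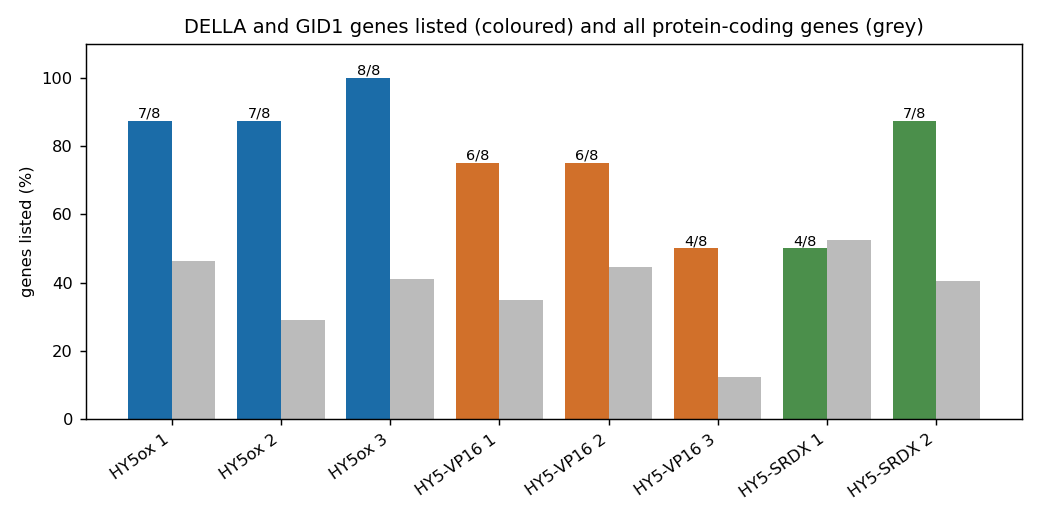
Share of the 8 DELLA and GID1 genes listed in each library beside the share of all protein-coding genes listed in the same library, in percent. The member share ranges from 4 of 8 genes, in HY5-VP16 replicate 3 and HY5-SRDX replicate 1, to 8 of 8 in HY5ox replicate 3.

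RGA, GAI, RGL1, RGL3, GID1A and GID1B were listed in every HY5ox library, which held for 6 of the 8 genes and 23.5% of protein-coding genes. RGA, GAI, RGL3 and GID1B were listed in every HY5-VP16 library (4 of 8, against 10.7%). RGA, RGL1, RGL3 and GID1B were listed in every HY5-SRDX library (4 of 8, against 26.4%). The 3 genes listed in all 8 libraries compare with 6.58% of protein-coding genes, and the 6 genes listed in at least 6 libraries compare with 22.5%. Listing in at least 1 library, which held for all 8 members, also held for 81.0% of protein-coding genes and so says little about them. Without HY5-VP16 replicate 3 the same 3 genes were in every library (11.1% of protein-coding genes). Without HY5-SRDX replicate 1 GAI joined them (8.46%), and without both libraries GAI and GID1A joined them, giving 5 of 8 (14.9%).

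RGA, one of the main repressors of stem and hypocotyl elongation, lies on the minus strand of chromosome 2 (TAIR10, chr2:255249-257550). Its leading peak was upstream, at a median of -1517 bp, within chr2:258829-259343, and was found in 7 libraries. In HY5ox this peak held 113.2, 99.9 and 141.9 tags per 10 M in replicates 1, 2 and 3. The HY5-VP16 values were 92.4, 44.1 and 55.5, and HY5-SRDX replicate 2 had 71.2. The HY5ox libraries were thus the 3 highest and HY5-VP16 replicate 2 the lowest, and HY5-SRDX replicate 1 had no peak there. HY5ox also had the widest peaks, and the part of width in this order was not tested.

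The authors' fold of this RGA peak over the control was 22.63, 5.1 and 8.8 in HY5ox, 11.95, 10.77 and 3.32 in HY5-VP16 and 13.04 in HY5-SRDX replicate 2. These folds and the scores used for ranking are the authors' own values for each peak, and each set was measured against a different control. HY5ox overlapped both other constructs in fold. A weaker pair of peaks lay in the RGA body. The first, at a median of 1160.5 bp downstream of the start site, appeared in HY5ox replicates 1 and 3. The second, at 1859.5 bp, appeared in HY5ox replicates 2 and 3, HY5-VP16 replicate 2 and HY5-SRDX replicate 1. In HY5-VP16 replicate 2 this body peak, with 61.8 tags per 10 M, was stronger than the upstream one, and in HY5-SRDX replicate 1 it was the only RGA peak, with 30.4 tags.

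GAI, the closest relative of RGA and a repressor of the same growth, lies on the plus strand of chromosome 1 (chr1:5149226-5151354). Its main peak was at a median of -1257.5 bp (chr1:5147670-5148161) and was found in all 3 HY5ox and all 3 HY5-VP16 libraries and in neither HY5-SRDX library. This joins peaks that overlap by at least 1 bp, as does the test of this position below. When 50% of the wider peak had to overlap, 5 libraries shared the position, and HY5ox replicate 1, centred at -1420 bp, did not. The main peak held 67.4, 70.4 and 90.8 tags per 10 M in HY5ox and 63.7, 39 and 37.1 in HY5-VP16. Every HY5ox value lay above every HY5-VP16 value, although HY5ox replicate 1 and HY5-VP16 replicate 1 differed by little. The fold over control was 7.8, 4.35 and 6.5 in HY5ox and 15.57, 6.6 and 3.1 in HY5-VP16, so that the groups overlapped on that scale.

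HY5-SRDX replicate 2 listed GAI through other peaks, centred at -100, 655 and 2190 bp, with 39.3, 37.3 and 41.7 tags per 10 M. These were the only GAI peaks seen in a single library. HY5-SRDX replicate 1 had no GAI peak, and its nearest peak was centred at -3678 bp and assigned to AT1G14910. In an exact two-sided permutation test over libraries, the upstream GAI peak gave p = 0.1 for HY5ox against HY5-SRDX and p = 0.1 for HY5-VP16 against HY5-SRDX, the smallest p these numbers of libraries allow. Both adjusted values were 1 over the 60 tests of 20 peak positions in 3 pairs of constructs, a family chosen after the positions had been seen. Of the 5101 regions with a peak in every HY5ox library, 29.9% had no overlapping peak in either HY5-SRDX library. Of the 2226 regions with a peak in every HY5-VP16 library, 17.9% had none in HY5-SRDX. Absence from HY5-SRDX was thus common in each of these comparisons. The share of regions found in every HY5ox and HY5-VP16 library and in no HY5-SRDX library was not computed.

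**Figure D2:**
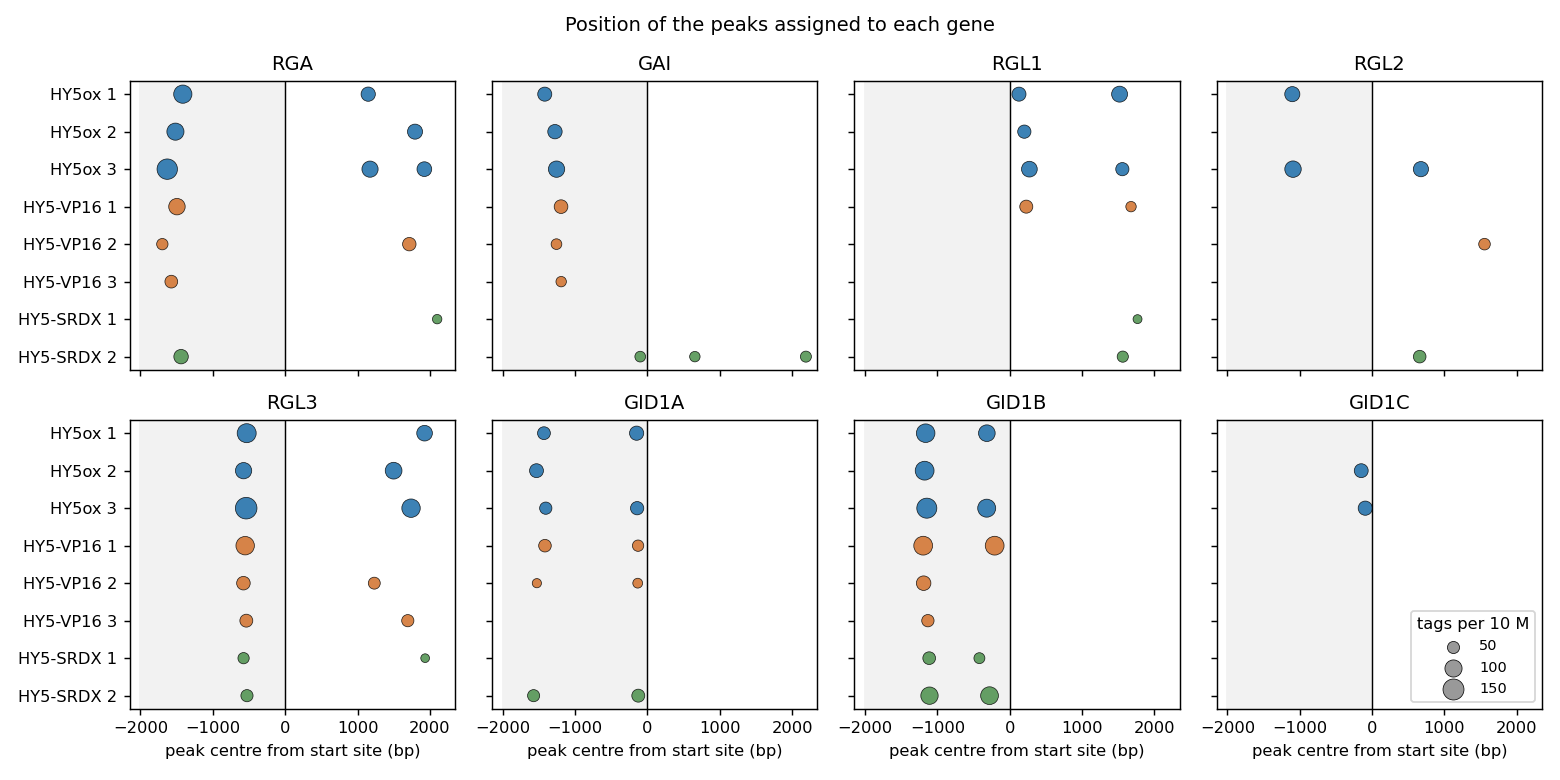
Peak centres of the 8 genes relative to the start site, in bp with negative values upstream, by library and construct. RGL3 at -546 bp and GID1B at -1155 bp line up in all 8 libraries, and the GAI peak at -1257.5 bp is seen in HY5ox and HY5-VP16 libraries and in no HY5-SRDX library.

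RGL1, a DELLA gene with a smaller part in germination and flower development, lies on the plus strand of chromosome 1 (chr1:24748195-24750043). It was listed in 6 libraries and had peaks at 2 positions. It was the only member whose strongest peak lay in the gene body in every library that listed it. The first, at a median of 214.5 bp, appeared in all HY5ox libraries and in HY5-VP16 replicate 1, with 67.4, 60, 84.4 and 58 tags per 10 M in that order. Only the one in HY5ox replicate 1 reached into the promoter. Its fold over control was 148.14 in HY5ox replicate 1, where the control had 0.7 tags, and 3.52, 3.94 and 7.5 in the other libraries. The tag level of the peak in HY5ox replicate 1 lay within the range of the other libraries.

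The other RGL1 peak, at a median of 1562 bp, appeared in HY5ox replicates 1 and 3, HY5-VP16 replicate 1 and both HY5-SRDX libraries, with 86.8, 59.5, 37, 27.3 and 42.7 tags per 10 M in that order. In all 5 libraries the authors also assigned it to the promoter of the neighbouring gene AT1G66360, at -1664 to -1416 bp from that gene's start, so that it cannot be given to RGL1 alone. For the peak near the start of RGL1, found in 3 of 3 HY5ox and 0 of 2 HY5-SRDX libraries, the exact permutation p was again 0.1 and the adjusted value 1. HY5-VP16 replicates 2 and 3 had no RGL1 peak, with the nearest peaks at 3253 and 83185 bp.

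RGL2, the main DELLA repressor of seed germination, lies on the minus strand of chromosome 3 (chr3:819337-821406) and was the DELLA gene listed least. Each of its peaks was found in 1 or 2 libraries. An upstream peak at a median of -1098 bp held 77.8 tags per 10 M in HY5ox replicate 1 and 92.2 in replicate 3. The authors also assigned it to AT3G03456, with centres 33 and 43 bp downstream of that gene's start. It cannot be given to RGL2 alone. A body peak at 666.5 bp held 79 tags in HY5ox replicate 3 and 54.5 in HY5-SRDX replicate 2. HY5-VP16 replicate 2 had a peak further downstream, at 1554 bp, with 46.1 tags. In 3 of the 4 libraries that did not list RGL2, the nearest peak lay between -5472 and -5312 bp and was assigned to AT3G03470.

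RGL3, a DELLA gene linked to jasmonate responses, lies on the minus strand of chromosome 5 (chr5:5764063-5766077) and was the DELLA gene with 1 position shared by all 8 libraries. Its promoter peak, within chr5:5766466-5766793, was found in all 8 libraries with centres between -577 and -528 bp. The peak held 123, 90.4 and 158.8 tags per 10 M in HY5ox. HY5-VP16 had 116, 62.8 and 56.9, and HY5-SRDX had 43.4 and 50.6. The 2 HY5-SRDX libraries were the lowest, and HY5-VP16 replicate 1 lay within the HY5ox range.

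The fold of the RGL3 promoter peak over the control was 24.58, 6.63 and 14.68 in HY5ox, 23.18, 12.56 and 5.79 in HY5-VP16, with 11.93 and 10.11 for HY5-SRDX. It passed 5-fold in all 8 libraries, which held for no other position of the 8 genes and for 1.29% of protein-coding genes by any peak. In all 8 libraries the authors assigned the same peak to AT5G17500, which is transcribed away from RGL3 on the other strand, at -774 to -725 bp from its start. The peaks alone do not tell which of the pair, if either, HY5 acts on. RGL3 also had body peaks centred between 1499 and 1935 bp in 5 libraries, with folds of 3.03 to 7.33, and 1 at 1232 bp in HY5-VP16 replicate 2. In HY5ox replicate 2 the body peak, with 95.6 tags per 10 M, ranked above the promoter peak. The 5 body peaks joined into 1 position through overlaps of at least 1 bp, and when 50% of the wider peak had to overlap, 2 libraries shared it.

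GID1A, one of the 3 partly interchangeable receptors, lies on the plus strand of chromosome 3 (chr3:1430471-1432778) and had peaks at 2 promoter positions. The far one, at a median of -1480 bp, was found in 6 libraries. It held 56.3, 66 and 51.4 tags per 10 M in HY5ox, 54.2 and 28.9 in HY5-VP16 replicates 1 and 2, and 50.1 in HY5-SRDX replicate 2. All but HY5-VP16 replicate 2 lay close together. In all 6 libraries this peak was also assigned to the promoter of AT3G05110, on the opposite strand.

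The near GID1A peak, centred between -150 and -127 bp, was found in 5 of those libraries and was assigned to GID1A alone. It held 68.8 and 60.2 tags per 10 M in HY5ox replicates 1 and 3, 44 and 32.9 in HY5-VP16 replicates 1 and 2, and 57.4 in HY5-SRDX replicate 2. The 2 HY5-VP16 libraries were the lowest here. HY5-VP16 replicate 3 and HY5-SRDX replicate 1, the libraries that stood apart, had neither peak.

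GID1B, the receptor reported to bind DELLA proteins even with little gibberellin, has its start site on the plus strand of chromosome 3 at position 23289425. It had 2 promoter positions and the lowest mean percentile of the 8 genes, although RGL3 ranked ahead of it in HY5ox replicates 1 and 3 and HY5-VP16 replicate 3. The far peak (chr3:23288102-23288428) was found in all 8 libraries, with centres between -1197 and -1110 bp. It held 117.4, 120.8 and 136.8 tags per 10 M in HY5ox, 120.4, 72 and 51.9 in HY5-VP16, with 55.2 and 102.6 for HY5-SRDX. The HY5ox values were close to each other, HY5-VP16 replicate 1 lay among them, and the other libraries were lower. The fold over control was 18.44, 9.45 and 8.28 in HY5ox, 14.71, 11.3 and 3.34 in HY5-VP16, with 15.17 and 16.35 for HY5-SRDX.

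The near GID1B peak, at a median of -317 bp, was found in 5 libraries. It held 94.5 and 110.4 tags per 10 M in HY5ox replicates 1 and 3, 120.4 in HY5-VP16 replicate 1, with 40.9 and 107.5 for HY5-SRDX replicates 1 and 2. Its centres ranged from -420 to -209 bp, and the peak in HY5-SRDX replicate 1 was the weakest and the farthest upstream. In HY5-VP16 replicate 1 it outscored the far peak. GID1B and RGL3 were the 2 members in the authors' deposited table of peaks found in all 8 samples, which names 1272 genes. RGA, although listed in all 8 libraries, was absent from that table. Its most shared position was found in 7 libraries, and in HY5-SRDX replicate 1 the RGA peak was in the gene body.

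**Figure D3:**
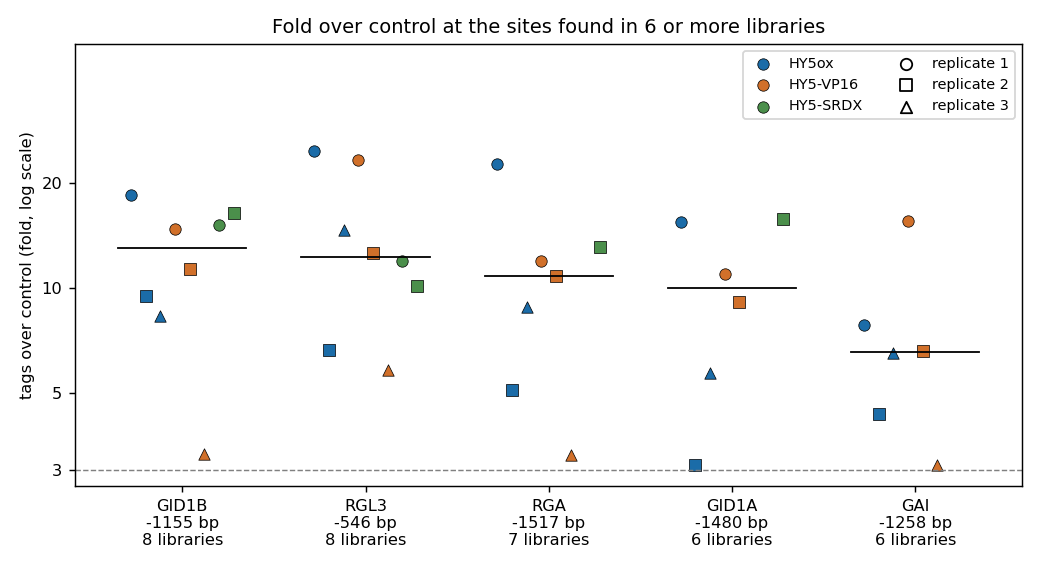
Authors' fold over control, on a log axis, at the 5 peak positions found in 6 or more libraries, with 1 point for each library, a bar at the median and a dashed line at the calling minimum of 3. The RGL3 promoter peak stays above 5-fold in every library, while RGA, GAI and GID1B fall to between 3.1 and 3.34 in HY5-VP16 replicate 3.

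GID1C, on the plus strand of chromosome 5 (chr5:9629087-9631210), was the receptor gene listed least. It had a single position, near the start site, in HY5ox replicate 2 at -150 bp with 66 tags per 10 M and in HY5ox replicate 3 at -94 bp with 68.8. Both exceeded their control by less than 5-fold, at 4.3 and 4.54. In the other 6 libraries the nearest peak was far away, from -11424 bp in HY5-VP16 replicate 2 to 65693 bp in HY5-VP16 replicate 3. HY5ox listed GID1C in 2 of 3 libraries and HY5-VP16 in 0 of 3, with an exact permutation p of 0.4.

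Within each library, peaks were ranked by score, and the rank of a gene's strongest peak was expressed as a percentile, with 0 the strongest. The mean percentiles over the libraries that listed a gene, from low to high, were GID1B (14.4 ± 18.1, SD, n = 8), RGL3 (20.1 ± 16.3, n = 8), RGA (25.4 ± 19.3, n = 8), RGL2 (35.3 ± 2.03, n = 4), RGL1 (52.0 ± 17.04, n = 6), GAI (52.6 ± 19.4, n = 7), GID1A (57.8 ± 16.8, n = 6) and GID1C (64.1 ± 0.717, n = 2). Neighbours differed by less than the larger SD of each pair. Each mean rests on the libraries that listed the gene, so genes with unequal libraries are not strictly ordered. With the same peaks, chosen by score, ranked by fold, the middle of the list ran GAI (44.4), GID1A (49.8), RGL2 (51.5) and RGL1 (52.4). The peak of highest fold was not always the one chosen by score, and an order by highest fold was not computed. By score HY5 itself was at 0.151. By fold its strongest peak lay between 0.304 in HY5-VP16 replicate 3 and 40.5 in HY5-SRDX replicate 1. Percentiles depend on the length of each list and were not compared between constructs.

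GID1B lay between 2.10 in HY5-SRDX replicate 1 and 14.7 in HY5ox replicate 3 in 7 libraries, and at 57.7 in HY5-VP16 replicate 3. RGL3 ranged from 5.56 in HY5-VP16 replicate 1 to 46.3 in HY5-VP16 replicate 3, with 42.8 in HY5-SRDX replicate 2. RGA stood between 12.2 and 24.8 in 6 libraries, and at 50.7 in HY5-VP16 replicate 3 and 60.6 in HY5-SRDX replicate 1. HY5-VP16 replicate 3 had the shortest list, so a given rank there is a high percentile. By rank, its RGA peak was number 1500, ahead of that in 5 other libraries, its RGL3 peak number 1369, ahead of that in 4, and its GID1B peak number 1706, behind all others. Ranked only among the 1804 protein-coding genes listed in all 8 libraries, their mean percentiles were 41.6 for GID1B, 53.0 for RGL3 and 61.3 for RGA, near the middle of that list.

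**Figure D4:**
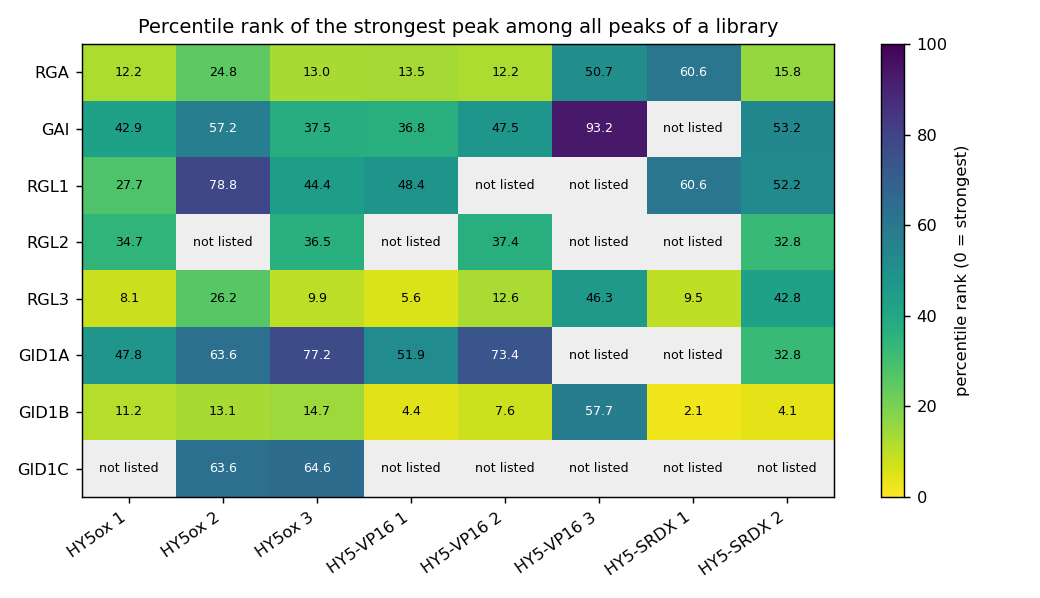
Percentile rank of the strongest peak of each gene in each library, with libraries as columns, low values strong, and grey cells where the gene was not listed. GID1B, RGL3 and RGA fill all 8 columns, and GID1C fills 2.

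The median percentile of the listed members was lower than that of all listed protein-coding genes in 6 libraries and higher in 2. It was 27.7 against 45.7 in HY5ox replicate 1, 57.2 against 45.3 in replicate 2 and 37.0 against 45.3 in replicate 3. In HY5-VP16 it was 25.1 against 47.4, 24.98 against 44.9 and 54.2 against 45.6. In HY5-SRDX it was 35.0 against 41.0 and 32.8 against 48.1. The exceptions were HY5ox replicate 2, the set with the hy5 control, and HY5-VP16 replicate 3.

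With only the 2958 strongest peaks of each library, which makes all lists as short as the shortest, HY5ox replicates 1 to 3 and HY5-VP16 replicates 1 and 2 each listed RGA, RGL3 and GID1B. HY5-VP16 replicate 3 listed GAI as well. HY5-SRDX replicate 1 listed RGL3 and GID1B, and replicate 2 listed RGA and GID1B. These counts of 2 to 4 genes compare with 12.8%, 13.2% and 13.1% of protein-coding genes in HY5ox, 11.8%, 11.4% and 12.4% in HY5-VP16, with 10.2% and 10.1% for HY5-SRDX. GID1B was the member left in all 8 libraries, as were 1.96% of protein-coding genes. With peaks of at least 5-fold alone, HY5ox listed 6, 3 and 6 members, HY5-VP16 6, 6 and 1, and HY5-SRDX 4 and 7. The means were then 5, 4.33 and 5.5, so that HY5-SRDX stood above HY5ox, while 21.5%, 18.5% and 27.7% of protein-coding genes were listed in an average library of the same constructs. With promoter peaks alone the means were 6.67, 4.67 and 3.5, against 31.1% of protein-coding genes over all libraries, and HY5-SRDX stood lowest. The promoter share of protein-coding genes was not computed per construct, so this order cannot be set against it.

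The promoter peaks of the 8 genes often lay far upstream. Of their 51 promoter peaks, 29 (56.9%) were centred more than 1000 bp from the start site. The same held for 32.1% of the 78402 promoter assignments of all protein-coding genes. The far share of the members was above that of protein-coding genes in 7 libraries. It was below in HY5-SRDX replicate 1, where 1 of 3 member peaks was far. These peaks are not independent, since all 29 came from 5 positions, at RGA, GAI, RGL2, GID1A and GID1B, each seen in more than 1 library. The remaining 25 of the 76 member peaks lay in gene bodies, mostly of RGA, RGL1 and RGL3. GID1A, GID1B and GID1C had no body peak.

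Listing of single genes was compared between constructs with two-sided exact permutation tests over libraries. The p-values of the 8 genes in the 3 pairs of constructs ran from 0.4 to 1. RGL1 (3 of 3 HY5ox against 1 of 3 HY5-VP16 libraries, and 1 of 3 HY5-VP16 against 2 of 2 HY5-SRDX), GID1C (2 of 3 against 0 of 3), GAI (3 of 3 HY5ox against 1 of 2 HY5-SRDX) and GID1A (3 of 3 against 1 of 2) were among those at 0.4. No member was listed in every library of one construct and in none of another. Among protein-coding genes this held for 1.37% (HY5ox and not HY5-VP16), 0.00% (HY5-VP16 and not HY5ox), 2.84% (HY5ox and not HY5-SRDX), 4.43% (HY5-SRDX and not HY5ox), 0.755% (HY5-VP16 and not HY5-SRDX) and 4.67% (HY5-SRDX and not HY5-VP16). The exact permutation test cannot reach 0.05 here, since its smallest p is 0.1, and over all protein-coding genes 0 were below 0.05 before adjustment.

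The centre of the strongest peak was compared in the same way for members listed in every library of both constructs, in 11 tests. GID1B lay at -1162 ± 15.01 bp (SD, n = 3) in HY5ox and at -1112 ± 2.83 bp (n = 2) in HY5-SRDX, with an exact permutation p of 0.1 and an adjusted value of 0.44. The difference of -50.3 bp is smaller than any peak, and peaks were wider in HY5ox (273 to 301 bp) than in HY5-SRDX (167 and 209 bp). The part of peak width in this difference was not tested. GAI lay at -1319 ± 88.4 bp in HY5ox and at -1215 ± 37.0 bp in HY5-VP16 (n = 3 each, exact permutation p = 0.2, adjusted 0.44). Without HY5ox replicate 1 the GAI difference went from -103 to -52.7 bp. No distance differed at an adjusted 0.05, and for RGA and RGL3 the mean was set by single libraries whose strongest peak lay in the gene body.

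Genes with a rank pattern most like that of RGL3 and GID1B were sought among the 1804 protein-coding genes listed in all 8 libraries, by the mean absolute difference in percentile over the 8 libraries. For RGL3 these were ECA2 (AT4G00900) and AT4G00905, with the same difference of 4.95, and AT1G12600 with 5.003. ECA2 and AT4G00905 also had the same mean percentile of 18.6. Whether they carry the same peaks was not examined, so they may not be separate likenesses. For GID1B they were CLC-B (AT3G27170) with 2.84, HVA22D (AT4G24960) with 2.93 and AT4G36500 with 3.35. The 8 libraries share controls and list lengths, and these likenesses are descriptions.

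Other genes of the gibberellin pathway varied from all libraries to none. Of 30 such genes for synthesis, inactivation, signalling and response, 6 (20%) were listed in at least 6 libraries, near the 22.5% of all protein-coding genes, and 2 (6.67%) were in all 8, against 6.58%. The median was 3 libraries, and 4 genes were in none. The DELLA and receptor genes had a median of 6.5, and all protein-coding genes a median of 2. GA2OX6, which encodes an enzyme that inactivates gibberellin, was listed in all 8 libraries at a mean percentile of 4.66, with folds of 5.76 to 16.53. That mean percentile was lower than that of any DELLA or receptor gene. By highest fold of the strongest peak, RGL3 (24.58), RGA (22.63) and GID1B (18.44) lay above GA2OX6, and the other members lay below. ENY, also called IDD1, which encodes a zinc finger protein that binds DELLA proteins, was listed in all 8 at 26.9. GA2OX1, for another inactivating enzyme, and SEC, for a sugar transferase that modifies RGA, were listed in 7 libraries each at 49.2 and 54.8. Among the 4 genes listed nowhere were GA1 and GA3OX1, for an early and a late enzyme of gibberellin synthesis, and SNE, for a relative of the F-box protein SLY1. SLY1 itself, which targets DELLA proteins for degradation, was listed in 2 libraries.

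The DELLA genes are 5 members of the larger GRAS family, and many other GRAS genes also carried peaks. Of 27 such genes, 14 (51.9%) were listed in at least 6 libraries and 4 (14.8%) in all 8, with a median of 6. Of the 5 DELLA genes, 4 (80%) were listed in at least 6 libraries and 2 (40%) in all 8. The shares of protein-coding genes were 22.5% and 6.58%. SCL3 was counted both here and among the 30 pathway genes. SCL7 (AT3G50650) was in all 8 libraries at a mean percentile of 4.96, SCL8 (AT5G52510) at 12.7 and SCL34 (AT2G29065) at 38.9. SCL7 and SCL8 thus ranked ahead of every DELLA gene. These lists were not tested against each other.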

How the data were processed

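The 8 tagged libraries and 3 controls were grouped by title, and each control served its own set. The submitters' processing notes name HOMER 4.9.1, Bowtie2 2.3.0, CASAVA 1.8.2 and the TAIR10 build. Peak calling was done per library, per the file headers, at a false discovery rate of 0.001, with at least 3-fold over the control and 2-fold over the surrounding 10 kb. The deposited signal is the tag count of a peak scaled to 10 M tags, the deposited score is HOMER's own, and the deposited ratio is the fold over control. Per the file headers, that ratio used control tags scaled to the library, but peak tags scaled down to the control in HY5-VP16 replicate 3. The authors assigned peaks to promoters or gene bodies. The annotation they used for this was not stated.

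A peak assigned to both counted as a promoter peak. Distances run from start site to peak centre. Peaks overlapping by at least 1 bp formed 1 position, 20 in all. The background was 27432 protein-coding genes of the RefSeq TAIR10.1 table, which matched 24890 of 25263 listed genes and whose coordinates were not used. Members, gene lists and tests were chosen with earlier results of these data known. All members are named, with the 3 genes nearest in rank to the best-ranked DELLA and receptor gene, up to 4 pathway genes and 3 GRAS genes by number of libraries and rank, neighbours sharing a peak, and HY5. GA1, GA3OX1, SNE and SLY1 are named outside that rule, after their values were seen. Tests were two-sided exact permutation tests over libraries with Benjamini-Hochberg adjustment, tested on simulated data first. The alternatives changed the gene sheet, peak position, fold minimum, list length, ranking measure, chosen peak, background, libraries used and replicate block. Python 3.11.15, numpy 2.4.6, pandas 2.3.3 and matplotlib 3.10.9 were used.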

Additional observations from a re-analysis of the deposited data

How the results depend on the processing

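The gene sheets and peak sheets listed the same members in all 64 combinations. With promoter peaks alone the means were 6.67 genes in HY5ox, 4.67 in HY5-VP16 and 3.5 in HY5-SRDX. The share of protein-coding genes was then 31.1% over all libraries and was not computed per construct. With a 5-fold minimum the means were 5, 4.33 and 5.5, which put HY5-SRDX above HY5ox. The shares of protein-coding genes in the same order were 21.5%, 18.5% and 27.7%. With equal numbers of the strongest peaks the means were 3 in HY5ox, 3.33 in HY5-VP16 and 2 in HY5-SRDX. The number of genes in all 8 libraries was then 1 (GID1B), it was 1 with the 5-fold minimum (RGL3), and it was 5 with both libraries that stood apart left out, a choice made after seeing the data. Leaving out 1 library at a time gave 7 to 7.5 genes in HY5ox, 5 to 6 in HY5-VP16, 4 to 7 in HY5-SRDX and 3 to 4 genes in all libraries.

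Differences in the strongest peak's distance reversed in several cases, none of which passed a test. With the peak nearest to the start site, RGA in HY5ox minus HY5-VP16 went from -1069 to 1857 bp, GID1B in that pair from -318.3 to 239.7 bp, and GID1B in HY5-VP16 minus HY5-SRDX from 268 to -494 bp. Leaving out 1 library at a time, RGA ranged from -1631 to 14.3 bp in HY5ox minus HY5-VP16 and from -2552 to 987.7 bp in HY5-VP16 minus HY5-SRDX. In the latter pair RGL3 ranged from -27.7 to 19.3 bp and GID1B from -49.5 to 441.5 bp. The GAI difference of HY5ox minus HY5-VP16 ranged from -134 to -52.7 bp, lowest in size without HY5ox replicate 1. The causes were not tested.

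With the replicate block, replicate numbers being paired, no call changed and no difference took the opposite sign, and the smallest p was 0.25 (GAI distance, HY5ox minus HY5-VP16). The RGL2 listing difference became 0 in both pairs with HY5-SRDX, and the RGA distance in HY5-VP16 minus HY5-SRDX went from -782 to -221 bp. Same-numbered HY5ox and HY5-VP16 libraries did not deviate together (r of 0.0696, -0.0971 and -0.0483 over genes), so the numbers were not taken to pair the libraries. Ranking the peaks chosen by score by their fold instead moved RGL2 from a mean percentile of 35.3 to 51.5. With all nuclear genes as background, 9.42% to 42.7% of genes were listed per library. Calling thresholds of 26.04 to 44.3 tags per 10 M set what could be listed, and HY5-VP16 replicate 3 had the most tags and the fewest peaks.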
